A study of Triticum aestivum with 4 samples.

Results

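GAPN and Pgk-1 are enzymes that act on the triose phosphates of plant leaves, and their transcripts were followed here across 4 arrays of wheat flag leaf. The genes were found by gene symbol or synonym, and they are 2 of the 771 genes that carry a symbol in the annotation of the array. They had been singled out with their values known: they were chosen on the size of their fall with heat and on the gap between seed backgrounds under heat. What follows therefore describes them and tests nothing. Each gene has 1 probe set in this annotation, listed under the symbol GAPN and, for Pgk-1, under the locus symbol LOC543496. The values below thus cover all probe sets that carry either name. Only 1273 of the 61115 probe sets used carry a symbol, and the others were not searched for either gene.

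Triose phosphates stand where photosynthesis meets respiration. The chloroplast makes them in the Calvin cycle, and those exported to the cytosol feed sucrose synthesis or are oxidised in glycolysis. Pgk-1 encodes phosphoglycerate kinase, which moves a phosphate group reversibly between bisphosphoglycerate and ATP. In the Calvin cycle the reaction spends ATP, and in glycolysis it regenerates ATP. GAPN encodes the non-phosphorylating glyceraldehyde-3-phosphate dehydrogenase of the plant cytosol. It oxidises the triose phosphate directly to phosphoglycerate and yields NADPH, and so bypasses the phosphorylating dehydrogenase and the kinase together with the ATP they would give. Plants hold phosphoglycerate kinases of the chloroplast and of the cytosol, and the annotation used here does not say which of these the Pgk-1 probe set reads. Bread wheat is hexaploid, and the copies of a gene in its subgenomes are close in sequence, so a probe set may sum over them.

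The plants were bread wheat, *Triticum aestivum*, of the winter cultivar Yangmai 16, and each of the 4 groups is 1 array of flag leaf RNA. NC and NH came from parents that were not primed. PC and PH came from parents that had been heat-primed, first with days of 32 °C and nights of 28 °C, for 2 days at both the 7-leaf and the 9-leaf stage, and again with 34 °C and 30 °C for 7 days starting on day 10 after anthesis. In the progeny, NH and PH were heated (days of 34 °C, nights of 30 °C) for 6 days starting on day 10 after anthesis, while NC and PC were kept at 26 °C and 22 °C. How many plants went into an RNA sample is not given in the sources used here. With 1 array per group no value has a replicate error, no difference has a p-value, and the number of arrays limits the precision. A difference is called here when it reaches 2-fold, and a probe set counts as measured when it exceeds 12.3, the median intensity over all arrays, which serves as the floor.

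The leaf markers matched the tissue label of the arrays. All 5 leaf markers (rbcl, PsbO, PsbP, petC and PRK) were above the floor on every array, at 1275 to 16875. Their summed level was 41386 (NC) and 43726 (PC) without heat and 25695 (NH) and 33559 (PH) with it. PsbO, PsbP, petC and PRK were lowest on NH, as both members were: petC went from 7853 to 2339 with heat in unprimed and from 8082 to 4623 in primed progeny, and PsbP from 5590 to 2832 and from 5727 to 4330. The rbcl probe set, a large part of each sum, kept to 15575 to 16875, the maximum of each array. It was also lowest on NH, but at the top of the scale it does not show whether the gene changed. Of 5 grain markers, 2 were above the floor on every array and the summed level of the list was 402 (NC) and 441 (PC) without heat and 1287 (NH) and 639 (PH) with it. The storage protein genes Gli-8 and LMW-GS stayed at or below 24.9. The thionin gene THI1.1 went from 7.53 to 22.5 and from 6.02 to 18.8, above the floor on the heated arrays alone. The avenin-like gene avnla went from 11.2 to 659 with heat in unprimed and from 9.5 to 72.9 in primed progeny. Its relative avnlb was well above the floor without heat too, and went from 342 to 571 and from 394 to 518. Of 2 anther markers, raftin1a was below the floor on all arrays and raftin1b just above it on all arrays, at 13.4 to 16.8. The poly-A control RNAs, which are added to the sample before labelling, had a median ratio over 36 probe sets of 1.87 for NH over NC and of 0.557 for PH over NH. The hybridization controls, 27 other control probe sets, had median ratios of 1.02 and 0.857 in these comparisons. The ratio of the 3' to the 5' ubiquitin probe set was 0.645 (NC) and 0.75 (PC) without heat and 0.929 (NH) and 0.992 (PH) with it. The part of these differences in the results below was not tested, apart from the rescaling on the poly-A controls given with them.

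GAPN, the NADPH-yielding enzyme, was strongly lower on both heated arrays. In unprimed progeny its intensity was 1690 without heat (NC) and 36.6 with heat (NH), and in primed progeny 1598 without (PC) and 120 with heat (PH). Both unheated arrays were high and both heated arrays low, with NH the lowest of the 4. The heated leaf of unprimed descent held 2.16% of the signal of its unheated counterpart, a 46.2-fold fall and a log2 difference of -5.53. The heated leaf of primed descent held 7.49%, a 13.3-fold fall and a log2 difference of -3.74. In tissue RNA, fewer cells of a type and less RNA per cell cannot be told apart. The lowest GAPN value, on NH, was 2.98 times the floor, so neither fold is a bound at this floor. The floor is no detection call, however, and 30.2% of probe sets were brighter than GAPN on NH. A floor at the 75th percentile, 53.6, lies above that value and would make the fall in unprimed progeny a bound.

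Pgk-1, a phosphoglycerate kinase, had the same order of arrays with smaller steps. Its intensity on NC was 3247 and fell to 292 on NH, and on PC it was 3085 and fell to 627 on PH. The unheated arrays again lay far above the heated ones. Heat left 9.0% of the signal in progeny of unprimed plants, an 11.1-fold fall with a log2 difference of -3.47. In progeny of primed plants it left 20.3%, a 4.92-fold fall with a log2 difference of -2.30. The lowest value, on NH, was 23.8 times the floor. For both genes the order of intensity was thus NC, PC, PH and NH from high to low, and within each seed background GAPN fell further than Pgk-1.

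**Figure D1:**
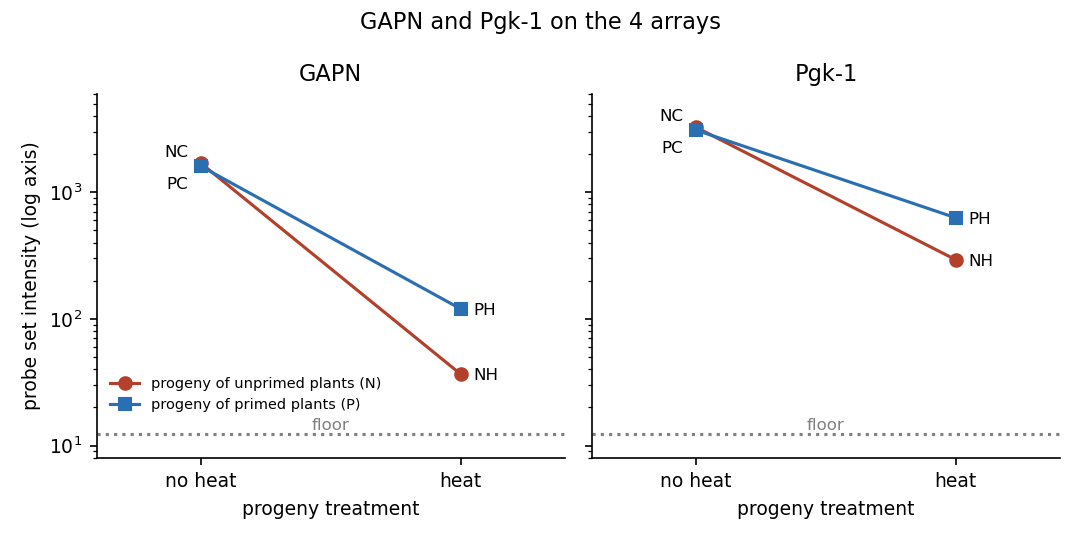
Probe set intensity (log axis) of GAPN (left) and Pgk-1 (right) without and with heat; red circles are progeny of unprimed plants, blue squares progeny of primed plants, each point is 1 array, and the dotted line is the floor of 12.3. The unheated arrays nearly coincide for each gene (1690 and 1598 for GAPN), while under heat PH lies above NH (120 against 36.6).

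Falls of at least 2-fold were common on these arrays, and the members lay towards their far end. Over all measured probe sets, 10.5% were 2-fold lower in NH than in NC and 9.99% in PH than in PC. Both members were lower in both comparisons, which is how they came to be picked, and nothing is read from that count. Their places among the falls, here and below, follow from the same choice, so they are a description and support nothing. In unprimed progeny 38 of 32695 probe sets had a lower log2 difference than GAPN, and 201 of 32454 in primed progeny. For Pgk-1 the numbers were 298 and 788. In both seed backgrounds at once, 32 other probe sets fell at least as far as GAPN and 276 at least as far as Pgk-1, of 33561 measured.

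Bright probe sets fell more often than measured ones as a whole, which bears on both members, since each stood above 1000 on NC and PC. Of the 1369 probe sets with at least 1000 on both unheated arrays, 34.3% were 2-fold lower in NH than in NC and 29.4% in PH than in PC. This class was set after the values were seen and is chosen on the unheated arrays, which favours falls. Its log2 difference for NH against NC had a median of -0.47 and a 5th percentile of -3.96, so that GAPN (-5.53) lay below the 5th percentile and Pgk-1 (-3.47) above it. For PH against PC the 5th percentile was -3.10, and again GAPN (-3.74) lay below it and Pgk-1 (-2.30) above. Among these bright probe sets, 27 fell further than GAPN in unprimed progeny and 49 in primed progeny, against 87 and 110 for Pgk-1.

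**Figure D2:**
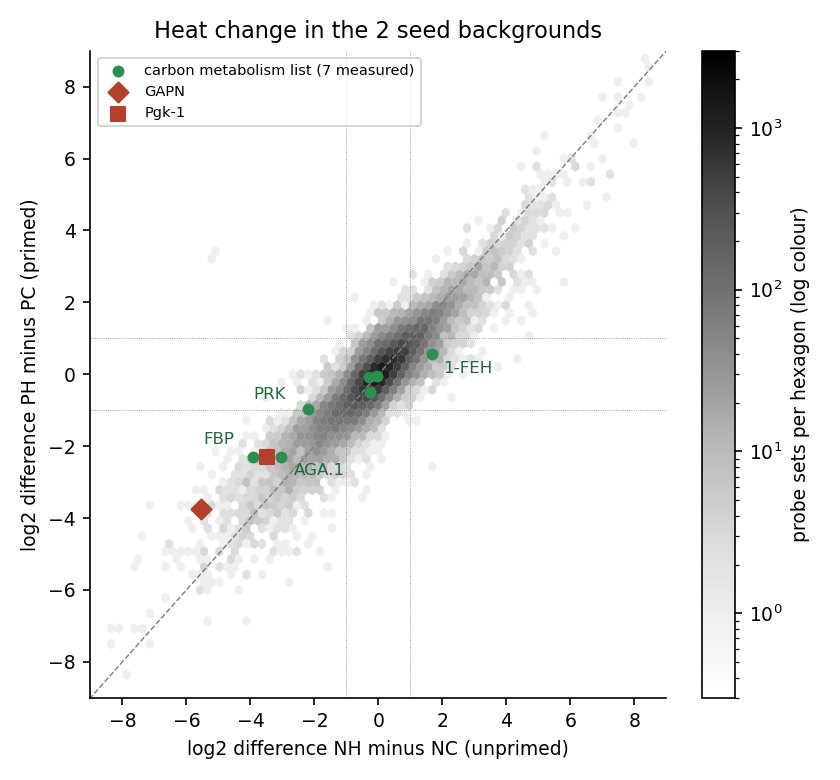
Log2 difference with heat in progeny of unprimed plants (NH minus NC, horizontal) and of primed plants (PH minus PC, vertical) for the 33561 measured probe sets as grey hexagons, with GAPN, Pgk-1 and the measured carbon metabolism genes as coloured points; dotted lines mark 2-fold and the dashed line equal change. GAPN (-5.53 and -3.74) and Pgk-1 (-3.47 and -2.30) both lie above the dashed line, on the side where the fall was smaller in primed progeny.

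Without heat, parental priming went with hardly any difference in either gene. GAPN on PC was 0.946 times its level on NC, a log2 difference of -0.08, and Pgk-1 was 0.95 times its level, a difference of -0.07. Over the array 0.761% of measured probe sets differed by 2-fold in either direction between these arrays, and neither member did. The bright probe sets had a 5th percentile of -0.26 and a 95th of 0.37 in this comparison, and both members lay inside that range. NC and PC, neighbours in the order of levels, therefore did not differ beyond the spread of other bright probe sets.

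Under heat both transcripts were higher in progeny of primed plants. GAPN was 3.27-fold higher on PH than on NH, a log2 difference of 1.71, and Pgk-1 was 2.14-fold higher, a difference of 1.1. Over the array 2.27% of measured probe sets were 2-fold higher in PH, and 66 of 31462 had a higher difference than GAPN and 513 a higher one than Pgk-1. In the bright class 9.2% were 2-fold higher. The 95th percentile of that class was 1.38, below the value of GAPN and above that of Pgk-1. This gap helped to choose both genes, so their places in the distribution are a description and support nothing.

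The same arrays give the difference of the heat changes. The ratio of heated to unheated signal was 3.46 times as high in primed as in unprimed progeny for GAPN and 2.26 times as high for Pgk-1, log2 values of 1.79 and 1.17. Over all measured probe sets 2.28% had a difference of at least 2-fold in this direction. In the bright class the 95th percentile was 1.27, and 21 of its 1369 probe sets lay above GAPN and 83 above Pgk-1. The fall in unprimed progeny, the gap between PH and NH and this difference all use the NH array, so they are not separate observations.

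The NH array was also the one with the brightest poly-A controls. When all arrays were divided by those controls, PH against NH had log2 differences of 2.54 for GAPN and 1.93 for Pgk-1, and NH against NC had -6.43 and -4.37. Neither direction turned. With that scaling the median of all measured probe sets stood at 0.74 for PH against NH and -0.69 for NH against NC. Relative to that median, GAPN had 1.80 and -5.73 and Pgk-1 1.18 and -3.68, near the values without it. That closeness follows by construction, since each array is divided by a single factor that the median carries too. Only values raised to the floor depart from this, so the closeness says nothing of stability. The background moved strongly: 7382 probe sets were then 2-fold higher and 83 lower in PH than in NH, in place of 715 and 472, while NH against NC gave 1100 higher and 11164 lower ones in place of 3615 and 3440.

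Few neighbouring enzymes of carbon metabolism carry a name on this array, 10 beside the members, and 7 of them were measured. In NH against NC, 3 of the 7 were 2-fold lower and 1 higher, against 10.5% and 11.1% of all measured probe sets, with a median log2 difference of -0.30 against 0.02 over all measured probe sets. In PH against PC, 2 were lower, against 9.99%, and 0 higher, with a median of -0.50 against 0.04. In PC against NC, 0 passed 2-fold, against 0.761%, with a median of 0.11 against 0.01. In PH against NH, 2 were higher, against 2.27%, and 0 lower, with a median of 0.11 against -0.003. For the difference of the heat changes, 2 were higher in primed progeny and 1 lower, against 2.28% and 2.27%, with a median of 0.22 against -0.005. Of the list, rbcl, FBP and PRK belong to the bright class, where larger shares passed 2-fold. There 34.3% were lower in NH than in NC, 29.4% lower in PH than in PC and 9.2% higher in PH than in NH. Those shares are a background for rbcl, FBP and PRK alone. AGA.1, at 966 on NC, and the other measured genes of the list lie outside the class. The counts of the whole list are therefore not weighed against those shares.

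Of the named neighbours, FBP, PRK and AGA.1 were 2-fold lower in NH than in NC, and FBP and AGA.1 also in PH than in PC. FBP, a fructose bisphosphatase, releases phosphate from a sugar bisphosphate on the way from triose phosphate to hexose, and went from 1692 to 112 with heat in unprimed and from 1557 to 316 in primed progeny. Its log2 heat differences were -3.92 in unprimed progeny, between those of GAPN and Pgk-1, and -2.30 in primed progeny, equal to that of Pgk-1 at this rounding. PRK, phosphoribulokinase, which regenerates the carbon dioxide acceptor of the Calvin cycle, went from 5887 to 1275 and from 6877 to 3493. AGA.1, a subunit of ADP-glucose pyrophosphorylase, which makes the precursor of starch, went from 966 to 117 and from 1128 to 230. For all 3 genes NH was the lowest array. PH over NH was 2.83 for FBP, 2.74 for PRK and 1.97 for AGA.1.

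Other members of the list gave other patterns. AGP-S, another ADP-glucose pyrophosphorylase gene, kept to 425 to 524 on the 4 arrays. The brightest probe set of rbcl, the large subunit of Rubisco, held 15575 to 16875, the maximum of each array, and so near the top of the scale it does not show whether the gene changed. Of its 11 measured probe sets, 10 were lower with heat in each seed background, 5 of them by 2-fold in NH against NC and 1 in PH against PC. 1-FEH, a fructan exohydrolase, went from 214 to 689 and from 353 to 518 and so was highest on NH, opposite to the members. 6-FEH, of the same enzyme class, lay near the floor at 15.4 to 21.8. PFK, the phosphofructokinase of glycolysis, GBSS-I, a granule-bound starch synthase, and IVR1, an invertase, were below the floor on all arrays, so their response was not measured.

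**Figure D3:**
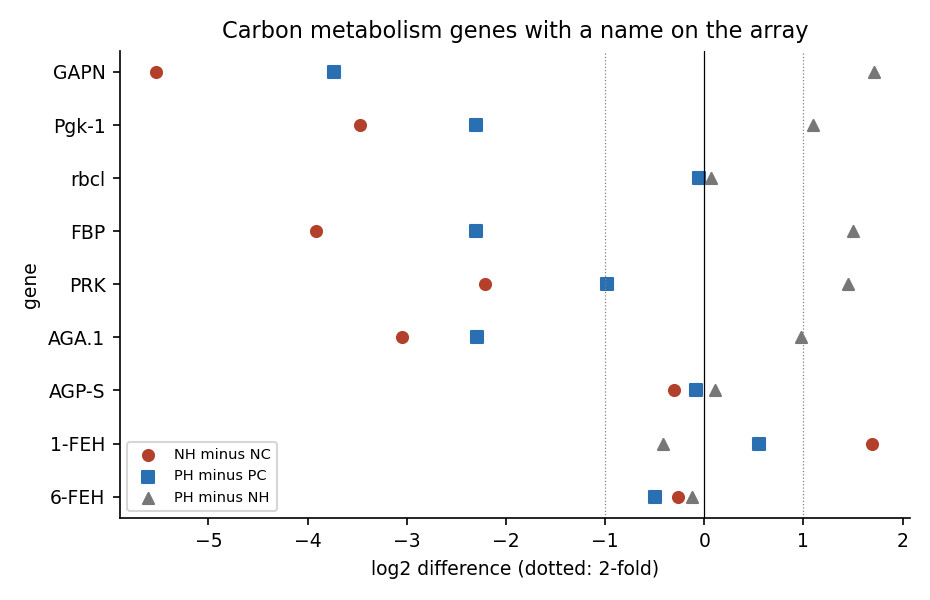
Log2 differences of GAPN, Pgk-1 and the 7 measured carbon metabolism genes for NH minus NC (red circles), PH minus PC (blue squares) and PH minus NH (grey triangles), 1 array per group; dotted lines mark 2-fold. GAPN has the widest spread (-5.53, -3.74 and 1.71), FBP, AGA.1 and PRK lie on the same sides as the members, and 1-FEH lies on the opposite side.

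The phosphorylating glyceraldehyde-3-phosphate dehydrogenase, which runs parallel to GAPN in the cytosol, is present among the control probe sets of the array. Its 5 probe sets lay between 2.34 and 25.4, and 8 of their 20 values exceeded the floor. The brightest, at the 5' end, went from 15.5 to 25.4 with heat in unprimed and from 20.0 to 17.4 in primed progeny, above the floor on all arrays. The ratios of this probe set, 1.64 for NH over NC and 0.871 for PH over PC, stood near those of the poly-A controls, 1.87 and 0.812. Whether these share a source was not tested. Another probe set lay just above the floor, at 12.3 to 13.0, with ratios of 1.05 and 1.03, unlike those of the poly-A controls. The other 3 were below the floor on every array. Whether these control probe sets read the transcript expressed in the leaf was not tested. Values so near the floor give neither its level nor its heat change.

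The profile of each member over the 4 arrays was compared with those of 611 other measured genes with a symbol. Likeness was the Euclidean distance between log2 intensities after subtracting each gene's own mean, over 4 arrays, so that both shape and size of the change count. A small distance over so few arrays says little more than that the heat changes were alike in size. For Pgk-1 the 2 nearest genes were AGA.1 (distance 0.31) and FBP (0.36), which belong to the carbon metabolism list. LOC780585, LOC542859, LOC543048 and LOC100125744, which have a locus symbol alone, followed at 0.41 to 0.65, LOC543048 with its NH value below the floor. Trx-M, thioredoxin m of the chloroplast, was the 9th nearest, and went from 3791 to 666 with heat in unprimed and from 3899 to 1300 in primed progeny. The histone H2B gene wcH2B-8 was the 14th, Prx1 the 15th and the beta-tubulin gene tubb1 the 29th. In wcH2B-8 and tubb1 the signal on PH was no higher than on NH (55.9 against 59.8, and 86.1 against 112), unlike Pgk-1.

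GAPN had no named gene as near. Its nearest was LOC543106 at 0.85, which went from 1091 to 30.5 and from 1144 to 166, and it showed the higher level on PH too. LOC543355, next at 0.95, stood at 36.4 on NH and 96.2 on PH. LOC543436, LOC780599, LOC542825 and LOC542839 followed at 1.09 to 1.35, with at most 39.2 on either heated array. Of these, LOC543436 and LOC780599 were higher on PH than on NH (39.2 against 23.6, and 25.1 against 19.4). In LOC542825 and LOC542839 the signal on PH was lower than on NH (15.1 against 17.2, and 19.2 against 21.4), unlike GAPN. Among genes with a functional name within the nearest 30 were PEAMT1, phosphoethanolamine N-methyltransferase, PR5, a thaumatin-like protein, wcH2B-8, FBP, Pgk-1 and AGA.1. PEAMT1 and PR5 were below the floor on both heated arrays, so their PH and NH levels have no order. Pgk-1 was the 16th nearest gene to GAPN, at a distance of 1.80, and GAPN the 73rd nearest to Pgk-1. Over all 33560 probe sets compared, named or not, 296 lay nearer to GAPN than Pgk-1 did, and 2293 nearer to Pgk-1 than GAPN did. There, 33 lay nearer to GAPN than LOC543106 and 32 nearer to Pgk-1 than AGA.1. The members thus shared the order of arrays and differed in the size of the fall.

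**Figure D4:**
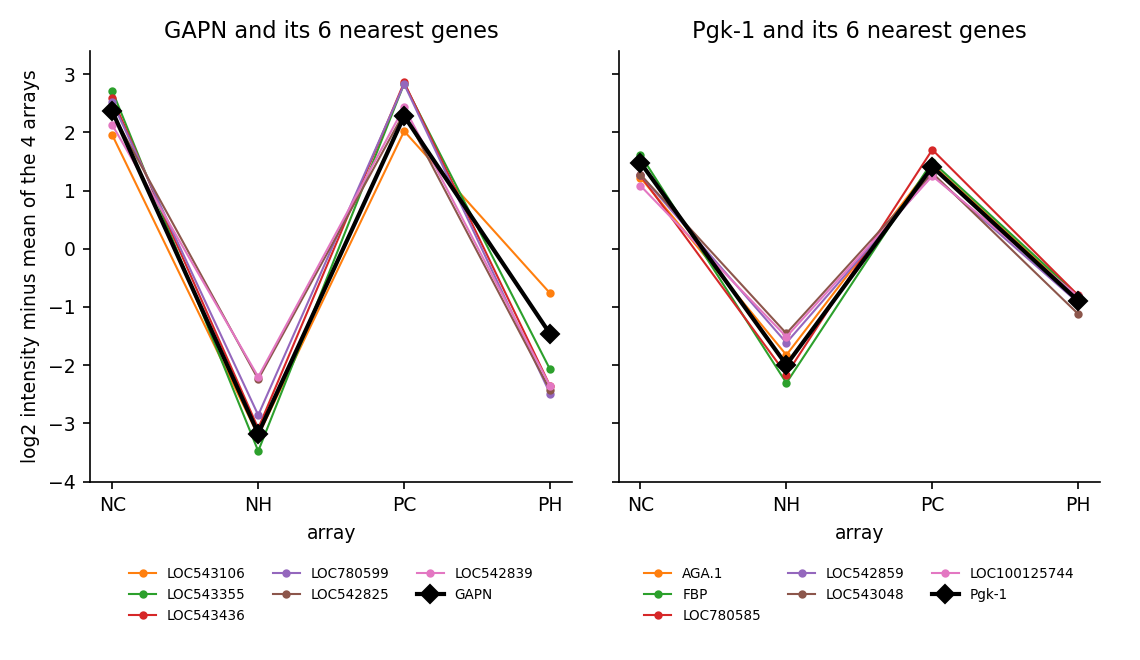
Log2 intensity minus the gene's own mean over the 4 arrays for GAPN (left, black) and Pgk-1 (right, black), each with the 6 nearest measured genes in colour; each point is 1 array, and values below the floor were raised to it. All profiles are high on NC and PC and low on NH and PH, and those around Pgk-1 (distances 0.31 to 0.65) lie closer than those around GAPN (0.85 to 1.35).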

How the data were processed

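RNA (6 µg per sample) from 4 flag leaf samples was put on wheat arrays made by Affymetrix, per the labels' protocols, which name Cy3 as label but describe biotinylated cRNA. The deposited values are probe set intensity on a linear scale. MAS5 is named per the submitters' processing notes; its version, the scaling between arrays, detection calls and the genome build were not given in the sources used here. Deposited values were used as they are. Of 61290 probe sets, 175 controls were left out. Values under the floor (50th percentile of all values, 12.3) were raised to it before log2. With 1 array per group no test was made, and "2-fold" is a rule of size.

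Members, lists and rules were chosen with earlier results of these data known. Names came from the platform annotation of 2007: 1273 probe sets have 1 symbol, and 770 of 771 genes matched the gene table of IWGSC CS RefSeq v2.1 by gene ID. The ID of GAPN did not match, though the table holds the symbol; Pgk-1 is a synonym there. No coordinates or sequences are printed, since no genome of a stated build was used here. The patterns for the carbon metabolism list reached 2 genes (rbcl, FBP), because the tables give symbols and no full names; 8 genes of the same enzymes were added by symbol. Each gene is its brightest probe set by mean log2. The named genes are the members, this list, and for each member the 6 nearest genes and those with a functional name among the nearest 30. Alternatives were median scaling, quantile normalization, scaling on the poly-A controls, floors at the 25th and 75th percentiles, a pseudocount, other choices of probe set, and 3-fold. Values were computed with numpy 2.4.6 and pandas 2.3.3 under Python 3.11.15 and drawn with matplotlib 3.10.9; counting and distance steps were tested on simulated data.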

Additional observations from a re-analysis of the deposited data

Results flagged for a closer look

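Control probe sets for sucrose synthase, the enzyme that splits sucrose in the cytosol, carried a signal that no comparison above uses. On the heated arrays they were brighter, opposite to GAPN and Pgk-1. The ratio of heated to unheated signal was 3.90 in unprimed and 3.70 in primed progeny for the 3' probe set, and 5.0 and 3.44 for the middle one. What flagged them is this signal outside the measured genes. Those for glucose-6-phosphate dehydrogenase, an NADPH-yielding enzyme like GAPN, were dim: the 3' probe set went from 54.7 to 94.7 with heat in unprimed and from 71.9 to 62.0 in primed progeny. Its ratio of 1.73 for NH over NC and 0.861 for PH over PC stood near those of the poly-A controls, 1.87 and 0.812, and whether these share a source was not tested.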

How the results depend on the processing

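Of 8 alternatives run for each member, 5 changed a value of GAPN and 4 one of Pgk-1; the others (other choices of probe set, the 25th-percentile floor and, for Pgk-1, the 75th) left the values as they were and say nothing of stability. Under those that changed a value both kept their direction and stayed past 2-fold in NH against NC, PH against PC, PH against NH and the difference of the heat changes. GAPN ranged from -6.43 to -4.98, -3.74 to -3.43, 1.16 to 2.54 and 1.24 to 3.0 in these, and Pgk-1 from -4.37 to -3.40, -2.30 to -1.99, 1.07 to 1.93 and 1.13 to 2.38. The low end for GAPN in PH against NH comes with the floor at the 75th percentile, 53.6, which lies above its NH value. Moves of over 1.5 times came from scaling on the poly-A controls, where NH against NC was -6.43 and -4.37, PH against NH 2.54 and 1.93, and the difference of heat changes 3.0 and 2.38 for GAPN and Pgk-1. Counts over the array moved more. With that scaling they were 1100 higher and 11164 lower (NH against NC), 5401 higher (PH against PC), 18 and 445 (PC against NC), 7382 and 83 (PH against NH) and 19370 and 64 (difference of heat changes); in NH against NC, 0 carbon metabolism genes were higher and 5 lower. The counts with a floor at the 75th percentile, higher and lower in the same order of comparisons, were 2388 and 2176, 1958 and 2071, 47 and 63, 330 and 268, and 339 and 399. At 3-fold they were 1580 and 1916, 1257 and 1651, 7 and 51, 100 and 133, and 139 and 166, and 0 carbon metabolism genes were higher in PH than in NH. A higher floor leaves fewer probe sets and a higher threshold passes fewer by construction. The poly-A scaling shifts all differences of a comparison alike, apart from values at the floor, so its counts also move by construction. Why the poly-A controls differ between arrays was not tested. No paired analysis was possible because each group has 1 array. Limits: with 1 array per group, plant-to-plant and array-to-array variation cannot be told apart from heat or priming; scaling between the deposited arrays is unknown; each member rests on 1 probe set, and its nearness to background is known only through the floor.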
